A study of Mus musculus with 28 samples.

Results

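The genes described here are 10 regulators of muscle wasting: the ubiquitin ligases Trim63, Fbxo32, Fbxo30 and Cblb, the transcription factors Foxo1, Foxo3 and Klf15, the secreted ligand Mstn, and the stress-response genes Ddit4 and Gadd45a. They were chosen by name, with earlier results of these data known, and all 10 were found on both array types used. The quadriceps and liver arrays measured 19928 named genes and the heart and gastrocnemius arrays 30063, and each of the 10 genes had 1 probe set on each array type. The mice were female C57BL/6J animals, housed in groups on chow and fasted overnight before tissue collection. They were either 6 months old (24 weeks in the labels) or 24 months old (103 weeks). No genetic change or drug is named in the labels, and every group shares the fast. Quadriceps was profiled on 3 arrays per age, gastrocnemius and heart on 4 arrays per age, which makes 22 of the 28 arrays of the series. Liver, on 3 arrays per age, served as a tissue without muscle fibres. The stated aim was to profile metabolic tissues of young and aged mice. The labels do not say whether each array held RNA of a separate animal, so p-values measure only the spread between these arrays, which may be technical.

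Muscle loses protein when degradation outpaces synthesis. In fasting, disuse and glucocorticoid excess, FoxO transcription factors leave the cytoplasm once Akt signalling drops, enter the nucleus and switch on ubiquitin ligases that mark contractile and regulatory proteins for the proteasome. Myostatin, made by muscle itself, signals through activin receptors and Smad proteins to limit muscle size, and insulin-like growth factor signalling through Akt opposes both arms.

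Promoter sequences of 3 members are shown: Trim63, whose window holds letters of the FoxO and glucocorticoid receptor motifs, and Klf15 and Mstn, 2 members that held other motifs searched. They are the 250 bases before the annotated start, all on the plus strand, from RefSeq on mouse build GRCm38.p6: chr4:134314870-134315119 for Trim63, chr6:90462326-90462575 for Klf15 and chr1:53061390-53061639 for Mstn. Capitals mark matches to the motifs searched on both strands.
Trim63: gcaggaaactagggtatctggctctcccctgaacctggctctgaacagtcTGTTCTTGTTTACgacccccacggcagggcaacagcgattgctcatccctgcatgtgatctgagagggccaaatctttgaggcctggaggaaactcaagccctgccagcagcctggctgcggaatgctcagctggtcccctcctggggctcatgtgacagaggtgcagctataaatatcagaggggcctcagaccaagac
Klf15: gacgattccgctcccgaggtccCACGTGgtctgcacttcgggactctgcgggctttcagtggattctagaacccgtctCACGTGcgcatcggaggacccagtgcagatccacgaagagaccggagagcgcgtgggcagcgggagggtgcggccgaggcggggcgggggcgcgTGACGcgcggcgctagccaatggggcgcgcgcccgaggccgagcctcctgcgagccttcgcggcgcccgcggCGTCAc
Mstn: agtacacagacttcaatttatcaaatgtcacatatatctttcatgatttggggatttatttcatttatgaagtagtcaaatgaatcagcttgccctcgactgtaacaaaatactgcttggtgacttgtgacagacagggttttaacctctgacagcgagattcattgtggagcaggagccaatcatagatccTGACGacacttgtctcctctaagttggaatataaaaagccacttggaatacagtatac

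The motifs were GTAAACA for FoxO factors, the half-site AGAACA for the glucocorticoid receptor, the E-box CACGTG and the cAMP response element half-site TGACG. Of the 10 genes, 9 had a promoter entry and Fbxo32 had none. In the Trim63 window a reversed glucocorticoid receptor half-site, 200 bases before the start, directly adjoined a reversed FoxO motif at 194 bases, with no overlap. Trim63 was the only one of the 9 windows with either motif. Among all 32851 promoter windows of this length, 3.17% held the FoxO motif and 16.1% the glucocorticoid receptor half-site. Klf15 held E-boxes at 228 and 172 bases and cAMP response element half-sites at 78 and 6 bases before the start. Mstn held that half-site at 58 bases and Foxo3 at 64 bases. The E-box was present in 6.02% and the cAMP response element half-site in 17.8% of all windows. These matches describe letters only; the arrays did not measure factor binding.

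Values are log2 expression as deposited, so a difference of 1 is a doubling. Array medians over all probe sets lay between 6.36 and 6.40 in quadriceps, 4.88 and 4.97 in gastrocnemius and 5.27 and 5.35 in heart. The labelled tissues carried their defining markers. The mean of 5 fast-fibre genes lay between 12.6 and 13.1 on all quadriceps and gastrocnemius arrays, against 6.04 to 6.20 in heart and 5.24 to 5.59 in liver. Some arrays stood apart in other markers. In quadriceps slow-fibre genes averaged 9.22 on 6-month replicate 3 and 6.34 to 7.83 on the rest, and liver genes averaged 9.34 on 24-month replicate 1 and 6.69 to 7.98 on the rest. Adipocyte genes averaged 7.55 on 6-month replicate 3 and 8.12 to 8.89 on the rest. In gastrocnemius immune genes averaged 6.40 on 24-month replicate 1 and 5.39 to 5.68 on the rest. Fibroblast genes averaged at least 8.75 at 6 months and 8.54 to 8.68 at 24 months there. The 3 fibroblast genes measured did not move together: 2 had a lower and 1 a higher old mean. The part of these cell types in the results below was not tested, and no marker gene was called by age. Differences are 24 minus 6 months, from limma with Benjamini-Hochberg adjustment over all genes of the array type, and a gene was called where the adjusted p was under 0.05. In whole tissue, fewer cells of a type and less RNA per cell cannot be told apart.

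None of the 10 regulators was called by age in any of the 3 tissues. This does not show that they were unchanged, since few genes of any kind were called and some intervals were wide. The interval of the Ddit4 difference in gastrocnemius ran from -1.77 to 0.54. Before adjustment, the quadriceps intervals of Trim63, Fbxo32 and Fbxo30 lay below 0, and the gastrocnemius interval of Fbxo30 lay above 0. In quadriceps 0 of 10 were called, beside 1 of all genes (0.00502%). In gastrocnemius the count was 0 of 10 beside 3 genes (0.00998%), and in heart 0 of 10 beside 2 genes (0.00665%). Before adjustment, p fell below 0.05 for 3 of the 10 members in quadriceps, beside 1406 of all 19928 genes. The counts were 1 of 10 beside 4958 of 30063 in gastrocnemius, and 0 of 10 beside 1800 of 30063 in heart. The members' share before adjustment was thus above that of all genes in quadriceps and below it in gastrocnemius and heart. Dim genes, with a mean below the median of all probe sets at both ages, were also left out. The counts were then 3 of 10 beside 1134 of 10963, 1 of 10 beside 4061 of 19082 and 0 of 9 beside 1325 of 18780. These shares were not tested against each other. By adjusted p, with so few calls over all genes, the members' count is no different from the background. The median difference over the 10 members was -0.06 in quadriceps, -0.01 in gastrocnemius and 0.02 in heart, beside 0.01, 0.02 and 0.01 over all genes.

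**Figure D1:**
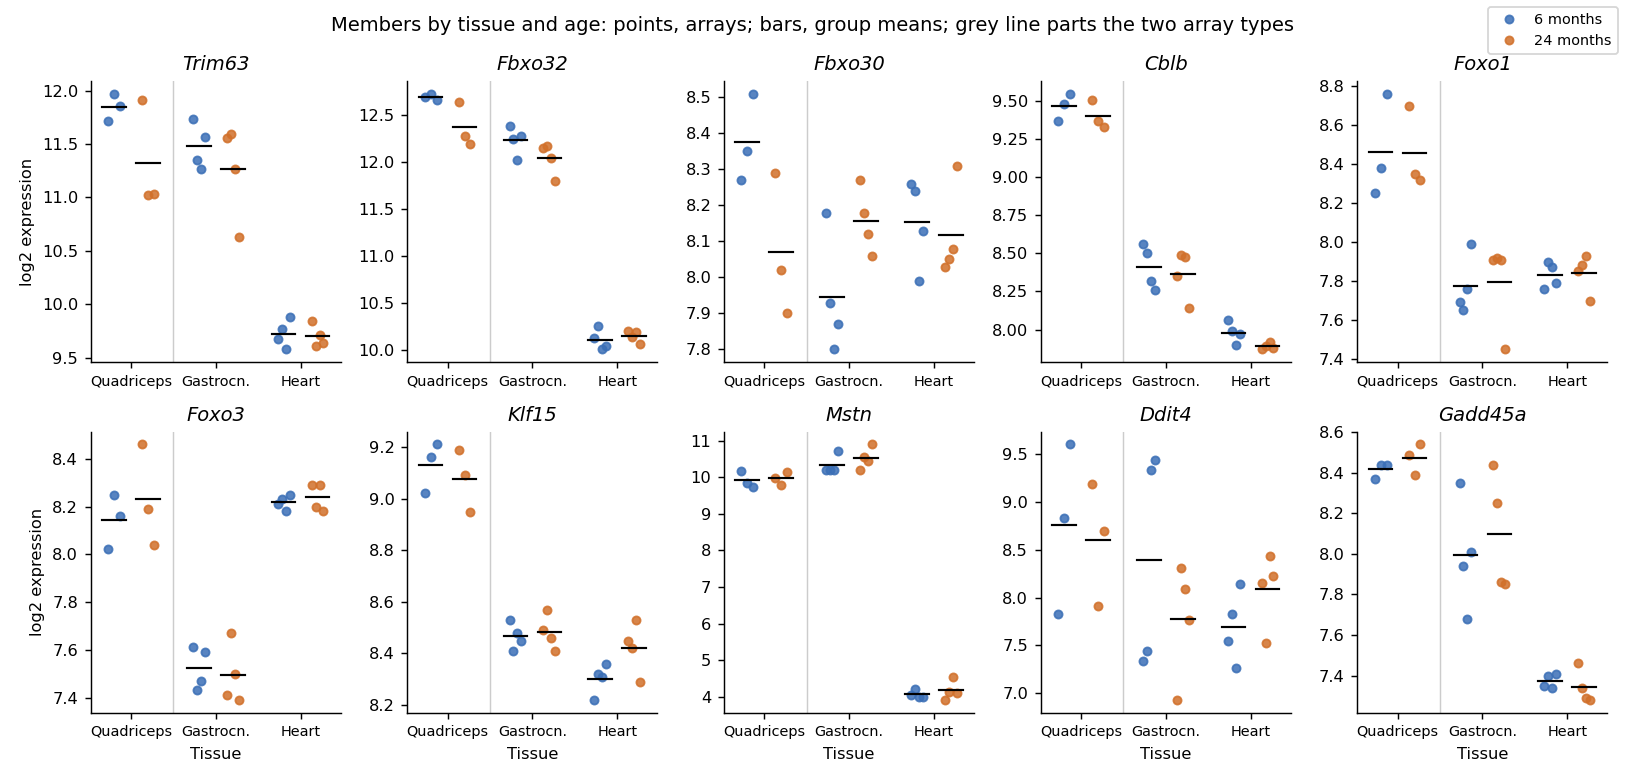
Log2 expression (vertical axis) of each of the 10 genes on every array, by tissue (horizontal axis) and age, with points for arrays and a mark for the group mean. Mstn and Trim63 separate tissues far more than ages, and Ddit4 points are widely scattered within each muscle group.

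Trim63 encodes MuRF1, a ligase of the sarcomere that targets myosin heavy chain and other thick-filament proteins. In quadriceps it read 11.72, 11.97 and 11.86 at 6 months, and 11.91, 11.02 and 11.03 at 24 months. Replicates 2 and 3 of the older group lay below every young array, while replicate 1 lay among them, so the groups overlapped. The mean was 11.85 ± 0.13 (SD, n = 3) at 6 months and 11.32 ± 0.51 (SD, n = 3) at 24 months. The difference was -0.53 (SE 0.22; 95% interval -1.03 to -0.03; limma adjusted p = 0.678). Without 24-month replicate 1, the array with the high liver-gene mean, it was -0.83 with an adjusted p of 0.0883, and without 24-month replicate 2 it was -0.38. The part of the liver-gene signal in this result was not tested.

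In gastrocnemius Trim63 read 11.73, 11.35, 11.27 and 11.57 at 6 months, and 11.56, 11.59, 11.27 and 10.63 at 24 months. The first 3 old arrays lay within the young range and only replicate 4 lay below it. The difference was -0.22 (SE 0.20; limma adjusted p = 0.614), and it was -0.01 without 24-month replicate 4. That array also had the lowest slow-fibre mean (6.85) and the lowest fast-fibre mean (12.6) of the gastrocnemius arrays; the part of either in the result was not tested. In heart all Trim63 values lay between 9.58 and 9.88, and the ages differed by -0.03 (95% interval -0.19 to 0.14).

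Fbxo32 encodes atrogin-1, an F-box protein whose known targets include the translation factor eIF3f and MyoD. It was the one member whose quadriceps groups did not overlap: 12.70, 12.73 and 12.66 at 6 months, against 12.64, 12.28 and 12.20 at 24 months. The highest old array lay just below the lowest young one, so the separation is narrow. Groups that did not overlap were found for 12.0% of all genes in quadriceps, 8.65% in gastrocnemius and 3.29% in heart, against 1, 0 and 0 of the 10 members. The quadriceps difference was -0.32 (SE 0.11; 95% interval -0.58 to -0.07; limma adjusted p = 0.622), and leaving out single arrays gave -0.46 to -0.24. In gastrocnemius Fbxo32 read 12.39, 12.25, 12.03 and 12.28, then 12.15, 12.17, 12.05 and 11.80, with only the last below the young range. That difference was -0.20 (SE 0.10; adjusted p = 0.353), and it was -0.11 without 24-month replicate 4. Heart stayed between 10.01 and 10.26, with a difference of 0.04 (95% interval -0.10 to 0.18).

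Fbxo30 encodes MUSA1, an F-box protein that rises in denervated muscle and is held down by BMP signalling. In quadriceps it read 8.27, 8.35 and 8.51 at 6 months and 8.29, 8.02 and 7.90 at 24 months. Its values overlapped through 24-month replicate 1, as those of Trim63 did. The difference was -0.31 (SE 0.11; 95% interval -0.56 to -0.05; adjusted p = 0.645). In gastrocnemius the sign was opposite: 8.18, 7.93, 7.80 and 7.87 at 6 months, and 8.27, 8.18, 8.12 and 8.06 at 24 months. Only 6-month replicate 1 reached into the old range. The difference was 0.21 (SE 0.08; 95% interval 0.02 to 0.40; limma adjusted p = 0.257). Because the muscles were measured on different array types, the difference between them was not tested.

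Cblb encodes Cbl-b, the ligase that degrades the insulin receptor substrate IRS-1 in unloaded muscle. Its differences were -0.06, -0.05 and -0.09 in quadriceps, gastrocnemius and heart. The widest of their 95% intervals, that of gastrocnemius, ran from -0.26 to 0.17. In quadriceps Irs1, the gene of the Cbl-b target, had the smallest p of its list (-0.59, SE 0.08; limma adjusted p = 0.101).

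The FoxO genes, whose proteins drive Trim63 and Fbxo32, differed little by age. Foxo1 differences were -0.01 in quadriceps, 0.03 in gastrocnemius and 0.01 in heart, with 95% intervals of -0.35 to 0.33, -0.24 to 0.29 and -0.12 to 0.14. Foxo3 differences were 0.09, -0.03 and 0.02. In gastrocnemius Foxo1 read 7.91, 7.92 and 7.91 on the first 3 old arrays and 7.45 on replicate 4, the array on which Trim63 and Fbxo32 were also lowest. FoxO activity is set by phosphorylation and location, which arrays do not measure. Klf15, a glucocorticoid-induced factor of amino acid catabolism, read 8.22 to 8.36 in young heart and 8.29 to 8.53 in old heart. The difference there was 0.12 (SE 0.06; adjusted p = 0.867), beside -0.05 in quadriceps and 0.02 in gastrocnemius.

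Mstn encodes myostatin, the muscle-derived inhibitor of muscle growth. In quadriceps it read 10.18, 9.84 and 9.73 at 6 months and 9.98, 9.80 and 10.14 at 24 months, with fully mixed ages. The gastrocnemius values were 10.19, 10.21, 10.20 and 10.72, then 10.20, 10.56, 10.46 and 10.90. A single young array, replicate 4, lay apart from its group there. The differences were 0.06 (95% interval -0.24 to 0.36) in quadriceps and 0.20 (-0.16 to 0.56; adjusted p = 0.557) in gastrocnemius. Leaving out old array 4 made the latter 0.077, and leaving out young array 4 made it 0.33. In quadriceps leaving out single arrays gave -0.037 to 0.19. On the heart arrays Mstn lay below the array median throughout, at 3.91 to 4.55.

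Ddit4 encodes REDD1, a stress- and glucocorticoid-induced inhibitor of mTORC1, and it was the most scattered member. In gastrocnemius the young arrays read 7.34, 7.44, 9.33 and 9.44, and the old ones 6.93, 8.31, 8.09 and 7.76. The young group thus fell into a low pair and a high pair, with 3 of the 4 old arrays in the gap between them. The difference was -0.62 (SE 0.52; 95% interval -1.77 to 0.54; adjusted p = 0.580), and leaving out single arrays gave -0.96 to -0.26. In quadriceps Ddit4 read 7.83, 8.83 and 9.60, then 9.19, 7.91 and 8.70. The old values lay within the young range, and the interval of the difference, -1.16 to 0.86, allows changes of over 1 log2 unit downward.

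In heart Ddit4 read 7.55, 7.83, 7.26 and 8.14 at 6 months, and 8.15, 7.53, 8.43 and 8.23 at 24 months. The old mean was higher by 0.39 (SE 0.22; 95% interval -0.10 to 0.88; adjusted p = 0.912). The 4 atrial marker genes averaged 10.17, 9.72, 10.64 and 9.43 on the young heart arrays and 7.73, 10.69, 9.69 and 7.89 on the old ones. In each age Ddit4 was lowest on the array with the highest atrial mean; the part of atrial tissue in the difference was not tested. Gadd45a, an ATF4-induced nuclear protein of denervated and immobilised muscle, differed by 0.06, 0.11 and -0.03 in quadriceps, gastrocnemius and heart.

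**Figure D2:**
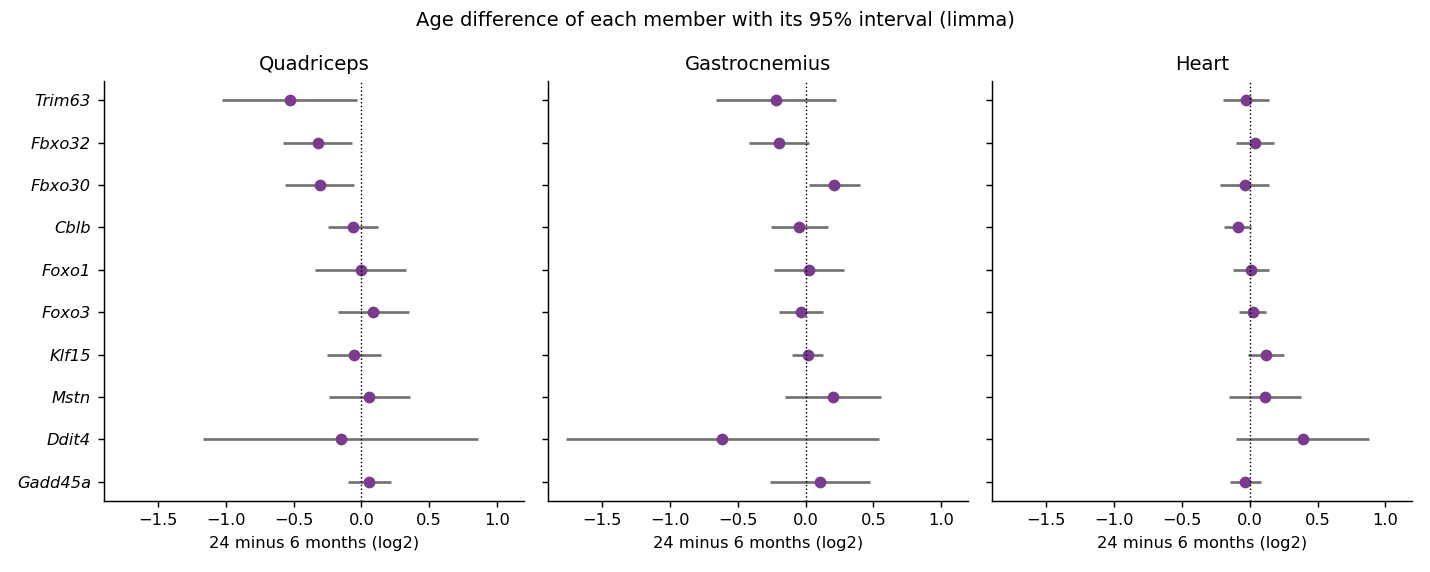
Difference in log2 expression, 24 minus 6 months (horizontal axis), with 95% intervals for the 10 genes (vertical axis) in quadriceps, gastrocnemius and heart. The widest intervals are those of Ddit4, and the quadriceps intervals of Trim63, Fbxo32 and Fbxo30 lie below 0 before adjustment for the number of genes.

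Signs in quadriceps and gastrocnemius matched for 6 of the 10 genes, 4 lower and 2 higher with age, and in all 3 tissues for 3. The test of whether gastrocnemius and heart, measured on the same array type, differed in their age effect called 0 of 10 members, beside 179 genes or 0.595% of all. The widest gap was that of Ddit4, at -1.01 (SE 0.61; adjusted p = 0.505). Fbxo30 differed by 0.25 (SE 0.12; adjusted p = 0.378) and Fbxo32 by -0.23 (SE 0.12; adjusted p = 0.417).

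Mstn, Trim63 and Fbxo32 differed between tissues far more than between ages. This did not hold for every member: Fbxo30 differed by -0.21 between gastrocnemius and heart and by 0.21 with age in gastrocnemius. At 6 months gastrocnemius exceeded heart in 6 members and fell below it in 1, by an adjusted p under 0.05. In that comparison 77.4% of all genes were called, so the total of 7 calls is near the background. By direction, 15.2% of all genes were higher and 62.2% lower in gastrocnemius, while 6 members were higher and 1 lower. These direction shares over all genes depended on the scaling, as given below. Mstn read 10.19 to 10.72 in young gastrocnemius and at most 4.20 in young heart. Its difference was 6.27, but the heart values lay below the median of all probe sets, where a probe may be at background, so no fold is given. Fbxo32 was higher by 2.13 (SE 0.08; 4.36-fold) and Trim63 by 1.75 (SE 0.10; 3.37-fold). The groups of these 3 genes were far from overlapping. Gadd45a (0.62), Cblb (0.43) and Klf15 (0.17) were also higher in gastrocnemius. Their sizes depended on the scaling: with each array centred on its median they were 1.03, 0.84 and 0.57. With the same centring Fbxo32 was higher by 2.53 and Trim63 by 2.16, so their folds depended on it as well.

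Foxo3 was the member that was lower in gastrocnemius, by -0.69 (SE 0.05; adjusted p = 1.1e-06), and by -0.52 with quantile normalization and -0.29 with centred arrays. Fbxo30 (-0.21, adjusted p = 0.0537), Foxo1 (-0.06, adjusted p = 0.492) and Ddit4 (0.69, adjusted p = 0.216) were not called. The median over all genes was itself shifted by -0.27 in this comparison. With each array centred on its median, Foxo1 was higher in gastrocnemius by 0.35 (adjusted p = 0.00194) and Fbxo30 by 0.20, so these signs depend on the scaling. Fbxo30 was called lower, at -0.21 to -0.22, with dim genes left out, a trend and robust prior, array weights or the replicate number as a block. It was also called without heart replicate 3 (-0.27) or gastrocnemius replicate 1 (-0.29), and Foxo1 without gastrocnemius replicate 4 (-0.13). Centring turned the calls over all genes from 4579 higher and 18687 lower to 14777 higher and 6119 lower; quantile normalization gave 11630 and 8015.

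Between quadriceps and liver at 6 months all 10 members were called, beside 69.8% of all genes, 28.1% higher and 41.6% lower in quadriceps. Higher in quadriceps were 7: Trim63 by 6.30, Fbxo32 by 5.79 (SE 0.08; 55.2-fold), Mstn by 5.57, Ddit4 by 1.96, Gadd45a by 1.53, Cblb by 0.66 and Fbxo30 by 0.32. Trim63 and Mstn lay below the array median on every liver array, where a probe may be at background. No fold is given for them, and their order has no meaning. Fbxo32 read 6.80 to 7.01 on the young liver arrays, not far above their medians of 6.47 to 6.48, so its fold is uncertain. With quantile normalization the Fbxo30 difference was 0.62. Klf15 (-0.50), Foxo1 (-0.35) and Foxo3 (-0.28) were lower in quadriceps than in liver, where FoxO1 and KLF15 serve the fasting response of glucose and amino acid metabolism. These 3 lower calls depended on the scaling. Quantile normalization ended all of them and turned Foxo3 to 0.02, while the 7 higher calls held; it moved the calls over all genes from 5608 higher and 8293 lower to 7524 and 6410. The Foxo1 call was also lost when quadriceps replicate 1 or 2, or any 1 of the liver arrays, was left out (-0.37 to -0.24), and the Foxo3 call without quadriceps replicate 1 (-0.22) or liver replicate 3 (-0.23).

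**Figure D3:**
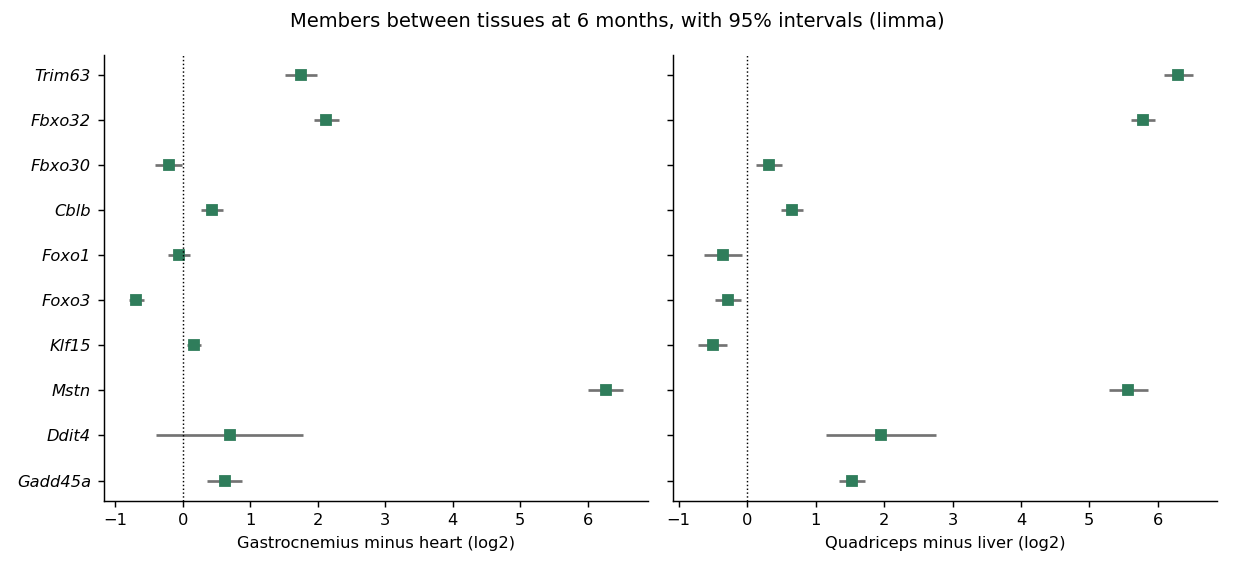
Difference in log2 expression with 95% intervals (horizontal axis) for the 10 genes (vertical axis) at 6 months, for gastrocnemius minus heart and quadriceps minus liver. Mstn, Fbxo32 and Trim63 stand far to the right in both, and Foxo3 lies left of 0 in both.

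Members varied more between arrays of 1 group than most genes did in the skeletal muscles. The SD within groups exceeded the all-gene median (0.103 in quadriceps, 0.0964 in gastrocnemius, 0.0931 in heart) for 8, 9 and 4 members. Ddit4 had an SD of 0.776 in quadriceps, 0.921 in gastrocnemius and 0.383 in heart, above that of 99.8%, 99.96% and 99.7% of all genes. Trim63 followed in both muscles, at 0.372 and 0.348 (above 98.9% and 99.1%), but not in heart, at 0.116 (66.8%). Gadd45a was scattered in gastrocnemius (0.285) and tight in quadriceps (0.0611). Klf15 was among the tightest members in gastrocnemius (0.0594).

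**Figure D4:**
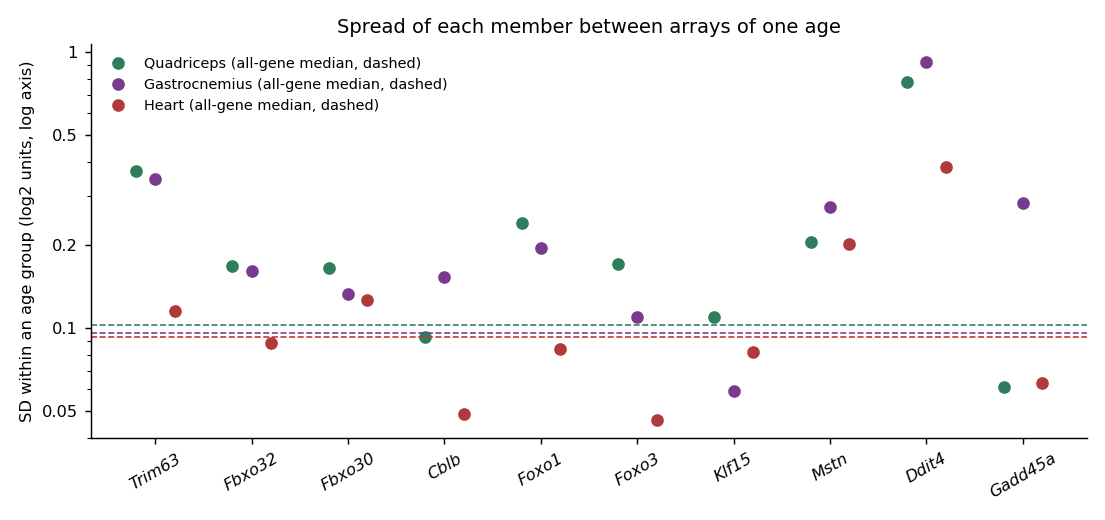
SD of log2 expression between arrays within age groups for the 10 genes in quadriceps, gastrocnemius and heart, beside the median of all genes. Ddit4 has the largest SD in each tissue, at 0.776, 0.921 and 0.383.

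Some arrays held many members at the edge of their group. In gastrocnemius, 24-month replicate 4 was lowest in 8 of 10 members, beside 22.4% of all genes, while 24-month replicate 2 and 6-month replicate 1 were each highest in 7, beside 19.98% and 30.7%. In quadriceps, 6-month replicate 1 was lowest in 8, beside 38.9% of all genes, and 24-month replicate 1 was highest in 8, beside 35.1%. Heart 6-month replicate 3 was lowest in 8, beside 23.4%.

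Trim63 and Fbxo32, the muscle ligases under FoxO control, were set against each other across arrays. This pair was picked after its values were seen, as 3 relations, 1 per tissue, and the p-values do not allow for that choice. Gastrocnemius 24-month replicate 4 was lowest in both genes. Over the 8 gastrocnemius arrays Pearson's r was 0.908 (exact permutation p = 0.00258, adjusted 0.00774) and Spearman's rho 0.874 (exact permutation p = 0.00754, adjusted 0.0226). Without the 2 arrays farthest from the Trim63 median r was 0.617. The 6 quadriceps arrays fell into separate clusters, with 24-month replicates 2 and 3 low in both genes and the other 4 arrays high in both, so no correlation is given for them. In heart, over 8 arrays, r was 0.345 (exact permutation p = 0.395), rho 0.405 (exact permutation p = 0.327), and r was 0.901 without the 2 farthest.

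**Figure D5:**
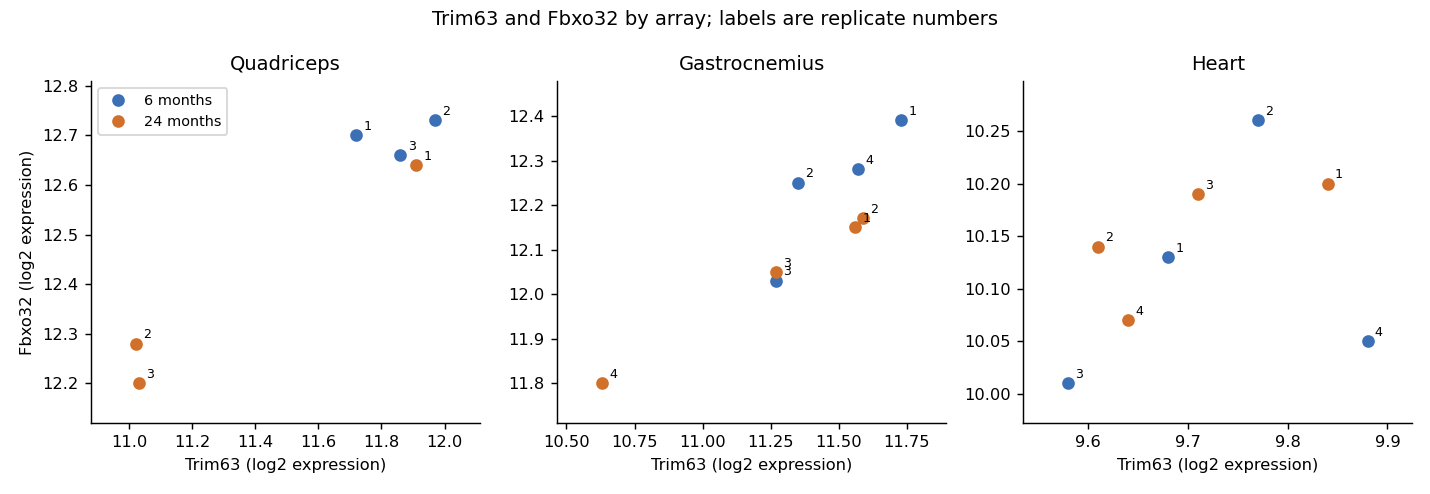
Log2 expression of Fbxo32 (vertical axis) against Trim63 (horizontal axis), 1 point per array, in quadriceps, gastrocnemius and heart, by age. The old gastrocnemius array at 10.63 for Trim63 also has the lowest Fbxo32 value, 11.80.

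As a description, genes were ranked by their correlation with these ligases over the 16 heart and gastrocnemius arrays, with group means removed; the points share array type and tissue pieces. For Trim63 the closest were Gm12240 (0.97), 4930486L24Rik (0.91), Gm15441 (0.91), Ddx27 (0.90) and Sesn1 (0.90), the last a stress-induced inhibitor of mTORC1. Those closest to Fbxo32 were Gm12226 (0.90), Samd4 (0.88), Tmem71 (0.87), Gzma (0.87) and Spice1 (0.86). All of these are the highest of a ranking over all genes. Gzma averaged 4.39 and 4930486L24Rik 4.88 over these arrays, levels at which a probe may be at background. Among the members, Trim63 correlated with Fbxo32 at 0.83, Gadd45a at 0.78, Foxo3 at 0.67, Foxo1 at 0.67, Cblb at 0.61, Klf15 at 0.54 and Fbxo30 at 0.46. For Ddit4 the value was -0.05 and for Mstn -0.40. The 16 arrays include gastrocnemius 24-month replicate 4, which was lowest of its group in 8 of 10 members. Trim63 also varied more within groups in gastrocnemius (SD 0.348) than in heart (SD 0.116). The part of that array and of each tissue in these correlations was not tested.

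The wider pathway was read from 8 lists of 120 genes, of which 113 were measured in quadriceps and 108 in gastrocnemius and heart. None was called by age in either direction in any tissue, beside the same 1, 3 and 2 genes called overall. The unadjusted p was below 0.05 for 19 of 113 list genes in quadriceps, beside 1406 of all 19928. In gastrocnemius this held for 23 of 108, beside 4958 of 30063, and in heart for 7 of 108, beside 1800 of 30063. The list share was thus above that of all genes in quadriceps and nearer to it in the other tissues. With dim genes left out, the counts over all genes were 1134 of 10963, 4061 of 19082 and 1325 of 18780. That background was nearer to the list share in quadriceps and gastrocnemius. The lists themselves were not filtered in this way. These shares were not tested against each other. Since no list gene was called, the values below are those of the genes with the smallest p-values in their lists, none of which passed.

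Among 13 measured genes of IGF1, PI3K and Akt signalling, 10 had a lower old mean in quadriceps (median -0.11), beside 9297 of all 19928 genes. In gastrocnemius and in heart 7 of 12 were lower (medians -0.10 and -0.03), beside 13310 and 13115 of all 30063 genes. Irs1, the adaptor of the insulin and IGF1 receptors, was first in quadriceps, at -0.59 (SE 0.08; limma adjusted p = 0.101). Its ages did not overlap, as was the case for 12.0% of all genes in quadriceps. Igf1, the growth factor itself, differed by -0.57 (SE 0.10; adjusted p = 0.258) there and by 0.13 (adjusted p = 0.276) in gastrocnemius. In heart Irs1 differed by -0.49 (SE 0.11; adjusted p = 0.348), and in gastrocnemius Akt2, the insulin-responsive Akt of muscle, by -0.20 (SE 0.05; adjusted p = 0.120).

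In myostatin, activin and Smad signalling, 15 genes were measured. Gdf11, the ligand nearest to myostatin in sequence, differed by 0.72 (SE 0.22; limma adjusted p = 0.587) in quadriceps, and Acvr2a, an activin receptor, by 0.28 (adjusted p = 0.251) in gastrocnemius. Of the opposing BMP branch, Bmpr1b differed by 0.27 (SE 0.05; adjusted p = 0.103) in gastrocnemius. Among the other muscle ubiquitin genes, Trim54, the MuRF3 ligase, differed by -0.25 (SE 0.06; adjusted p = 0.108) in gastrocnemius, and Fbxo21 by 0.25 (SE 0.07; adjusted p = 0.572) in quadriceps. The genes named for gastrocnemius differed in quadriceps by -0.05 (Acvr2a), 0.03 (Bmpr1b) and 0.10 (Trim54).

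Of 16 autophagy and FoxO target genes, 11 in quadriceps, 10 in gastrocnemius and 9 in heart had lower old means (medians -0.05, -0.07 and -0.02). Over all genes, old means were lower for 9297 of 19928, 13310 of 30063 and 13115 of 30063 in these tissues. Ulk1, the kinase that starts autophagy, led the list in both muscles, at -0.26 (limma adjusted p = 0.628) and -0.31 (adjusted p = 0.123). Among glucocorticoid receptor targets, Angptl4, a fasting-induced inhibitor of lipoprotein lipase, had the smallest p in all 3 tissues, at -0.28, -0.47 and -0.54 (adjusted p = 0.598, 0.143 and 0.273). Its ages did not overlap in any of them, beside 12.0%, 8.65% and 3.29% of all genes. A gene picked for the smallest p of its list is likely to show such separation. Of this list 9 of 14 old means were lower in quadriceps (median -0.04), 10 of 13 lower in gastrocnemius (-0.11) and 10 of 13 higher in heart (0.14). In heart 16780 of all 30063 genes had higher old means.

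Of the mTORC1 regulators, Ddit4l, the paralogue of Ddit4, differed by -0.33 (SE 0.08; limma adjusted p = 0.122) in gastrocnemius. In the denervation and Gadd45a list, Atf4, the stress-response factor upstream of Gadd45a, differed by -0.17 in quadriceps and -0.21 in gastrocnemius (adjusted p = 0.703 and 0.174). Ankrd1, a stretch-responsive ankyrin repeat protein, differed by 0.93 (SE 0.36; adjusted p = 0.253) in gastrocnemius, and Gadd45b by 0.44 (SE 0.11; adjusted p = 0.418) in heart.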

How the data were processed

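RNA amplified with a whole-transcript kit was hybridised to Affymetrix arrays of 2 types, per the labels. The authors deposited log2 values; RMA is named in the submitters' processing notes, and its version and build are not given in the sources used here. RMA adjusts array distributions, so shifts shared by most genes are removed in part. The tables held 28944 probe sets (quadriceps and liver) and 65956 (heart and gastrocnemius). Probe sets with 1 gene symbol were kept (21797 and 30604); those with several (1613 and 2146) or none (5534 and 33206) were left out. Symbols were updated through RefSeq (23 and 1135), and the probe set of highest mean stood for a gene. No filter on dim genes was set.

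Each comparison was fitted on its own arrays with limma 3.58.1 (lmFit and eBayes, R 4.3.3) and adjusted over all genes. Descriptions used Python 3.11.15 with scipy 1.17.1. The fit was tested on simulated data. Arrays, whose number limits the precision, were grouped by tissue and age from their titles. The members and lists were chosen with earlier results of these data known. All 10 members are named; per list and age comparison, up to 4 genes past the threshold or, where none passed, genes from the 2 of smallest p; markers by range; and the 5 genes most correlated with each of Fbxo32 and Trim63. Alternatives were quantile normalization, centring, a filter on dim genes, every probe set, mean probe sets, trend and robust priors, array weights, a joint fit, a replicate block and each array left out. Replicate numbers were not taken as pairs, since in no comparison did every same-numbered pair correlate above 0.1.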

Additional observations from a re-analysis of the deposited data

Results flagged for a closer look

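Among 40 gene and group combinations of 4 arrays, 2 had an array far from its group; chance alone gives about 1 in 20. Foxo1 read 7.45 on gastrocnemius 24-month replicate 4, while the other arrays of that group lay between 7.91 and 7.92. Mstn read 10.72 on gastrocnemius 6-month replicate 4, while the other arrays of that group lay between 10.19 and 10.21.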

How the results depend on the processing

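No member was called by age, or in the gastrocnemius against heart test of the age effect, under any alternative run. The lowest adjusted p was 0.0883 (Trim63, quadriceps, without 24-month replicate 1). The counts over all genes were less stable, and the cause was not tested. In quadriceps (1 gene) leaving out dim genes gave 9, a trend and robust prior 18, array weights 8 and a joint fit 15. In gastrocnemius (3 genes) centring gave 1, dim genes left out 58, trend 9, weights 89 and the joint fit 829. In heart (2 genes) quantile normalization gave 4, centring 1, dim genes left out 20, trend 14, weights 4 and the joint fit 25. For the age effect between gastrocnemius and heart (179 genes) quantile normalization gave 113, dim genes left out 353 and weights 739. Leaving out single arrays gave 0 to 0, 0 to 70, 0 to 5 and 22 to 547 genes in these 4 comparisons. With the replicate number as a block the counts were 0, 0, 0 and 152. Same-numbered arrays correlated at -0.04 to 0.16 in quadriceps, -0.04 to 0.30 in gastrocnemius and -0.22 to -0.00 in heart, and 2 of 6, 6 of 8 and 0 of 8 arrays correlated best with their own number. Signs of small differences turned. Under quantile normalization Foxo1 in quadriceps was 0.0056, Cblb and Foxo3 in gastrocnemius were 0.0086 and 0.0084, Foxo1 in gastrocnemius against heart 0.12 and Foxo3 in quadriceps against liver 0.022. Under centring Foxo1 and Klf15 in gastrocnemius were -0.015 and -0.025, the Foxo1 age effect between tissues was -0.015, and in gastrocnemius against heart Foxo1 was 0.35 and Fbxo30 0.20. With array weights Foxo3 in gastrocnemius was 0.023. Leaving out single arrays turned these signs, with ranges over all such fits: in quadriceps Foxo1 (-0.13 to 0.14), Foxo3 (-0.028 to 0.18), Klf15 (-0.11 to 0.01), Mstn (-0.037 to 0.19) and Ddit4 (-0.62 to 0.27); in gastrocnemius Cblb (-0.095 to 0.03), Foxo1 (-0.016 to 0.14), Foxo3 (-0.092 to 0.0017), Klf15 (-0.014 to 0.039) and Gadd45a (-0.0083 to 0.22); in heart Trim63 (-0.077 to 0.023), Foxo1 (-0.02 to 0.057) and Mstn (-0.0125 to 0.20). For the age effect between gastrocnemius and heart they were Trim63 (-0.30 to 0.021), Cblb (-0.005 to 0.12), Foxo1 (-0.032 to 0.13) and Mstn (-0.036 to 0.22). Mstn in heart, below the array medians, was dropped with the dim genes.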

Other observations

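Liver was not part of the age comparisons above, and its values are given without a test for the 3 members of largest difference in means, singled out after their values were seen. Ddit4 averaged 6.79 ± 0.14 (SD, n = 3) at 6 months and 7.38 ± 0.25 (SD, n = 3) at 24 months, with arrays between 6.63 and 6.89 and between 7.12 and 7.62. Fbxo30 averaged 8.05 ± 0.07 (SD, n = 3) and 7.65 ± 0.16 (SD, n = 3), and Trim63 5.55 ± 0.13 (SD, n = 3) and 5.97 ± 0.26 (SD, n = 3), below the array medians. The interquartile range of all probe sets was 2.75 to 2.79 on the young and 2.43 to 2.66 on the old liver arrays; its part in these values was not tested.

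For Ddit4, singled out after its scatter was seen, the closest genes over the 16 heart and gastrocnemius arrays with group means removed were Tcim (0.93), Gm12501 (0.91), Anapc16 (0.89), Rnf144b (0.89) and E230001N04Rik (0.88).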
